A study of Mus musculus with 4 samples.

Results

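The genes described here form chemokine axes that position dendritic cells (DCs) and regulatory T cells (Tregs). They are the ligands Ccl22, Ccl17 and Ccl1 and the receptors Ccr7, Ccr4 and Ccr8, chosen by name as 6 of the 32285 genes of the count table, and each had UMIs in all 4 tumors. A UMI is a molecular tag that marks 1 captured RNA molecule. The study implanted EO771 cells, a mouse mammary carcinoma line, into the mammary fat pad of female mice and sorted viable CD45+ leukocytes from tumors of 1.5 cm3 for single-cell RNA sequencing. The 2 control tumors grew in Csf1rfl/fl mice, which carry floxed alleles of the colony stimulating factor 1 receptor and no Cre. The other 2 tumors grew in Lyve1CreCsf1rfl/fl mice, in which Cre driven by Lyve1 deletes the receptor. Ages were not given in the sources used here. Both genotypes were pooled in each of 2 Chromium runs, with hashtag antibodies to separate the tumors, and replicates 1 and 2 are the tumors of run 1 and run 2.

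CCR7 is the receptor that takes maturing DCs and naive T cells along CCL19 and CCL21 toward lymphatic vessels and the T cell zone of lymph nodes. CCL22 and CCL17 are the ligands of CCR4, a receptor of Tregs and of some effector T cells, and DCs are a known source of both. CCL1 is a ligand of CCR8, which marks Tregs of many tumors, and is made by activated T cells among other cells.

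In mm10, Ccl22 lies on chromosome 8 from 94745590 to 94751699 and Ccl17 from 94810453 to 94812036, both on the plus strand and 58753 bases apart with Cx3cl1 between them. Ccr4 (114490316 to 114504916, minus strand) and Ccr8 (120092114 to 120094906, plus strand) are on chromosome 9. Ccr7 (99144196 to 99155077) and Ccl1 (82176657 to 82305690) are on the minus strand of chromosome 11. The annotated span of Ccl1 covers 129034 bases. The promoters of the 3 ligands, from 250 bases before to 50 after a RefSeq start (GRCm38.p6), are shown because the ligands differed in which cells held them. They read, 5′ to 3′ on the strand of the gene,
Ccl22 (chr8:94745434-94745733, plus strand): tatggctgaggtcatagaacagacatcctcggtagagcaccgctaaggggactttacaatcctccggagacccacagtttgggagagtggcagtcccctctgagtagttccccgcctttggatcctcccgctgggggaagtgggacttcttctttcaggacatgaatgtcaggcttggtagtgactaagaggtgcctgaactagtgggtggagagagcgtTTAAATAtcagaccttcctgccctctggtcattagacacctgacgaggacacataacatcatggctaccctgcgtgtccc
Ccl17 (chr8:94810203-94810502, plus strand): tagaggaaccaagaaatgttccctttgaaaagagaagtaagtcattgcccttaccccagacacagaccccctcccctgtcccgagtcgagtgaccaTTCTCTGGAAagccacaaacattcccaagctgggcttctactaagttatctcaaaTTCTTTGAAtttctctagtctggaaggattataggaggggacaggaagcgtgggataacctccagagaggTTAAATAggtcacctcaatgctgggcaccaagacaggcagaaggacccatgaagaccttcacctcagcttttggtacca
Ccl1 (chr11:82179763-82180062, minus strand): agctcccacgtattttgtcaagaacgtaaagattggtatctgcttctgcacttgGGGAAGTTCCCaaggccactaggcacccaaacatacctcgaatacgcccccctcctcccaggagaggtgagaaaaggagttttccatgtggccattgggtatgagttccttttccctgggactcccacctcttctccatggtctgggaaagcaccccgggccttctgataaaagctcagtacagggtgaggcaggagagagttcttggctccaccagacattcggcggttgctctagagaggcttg
Capitals mark matches to motifs that were searched on both strands. The letters TTAAATA, picked after the sequences were read, began 30 bases before the start of Ccl22 and 29 bases before that of Ccl17, and 4.51% of 32851 promoters of this length held them. A match to the kappa B motif was found in Ccl1, and 8.46% of promoters held one. STAT motifs, TTC and GAA with a spacer of 3 or 4 bases (in 8.30% and 6.95% of promoters), matched in Ccl17 only among the 5 members with a listed promoter. The promoters of Ccr4 and Ccr8 held none of these motifs.

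Of 53361 barcodes, 28429 cells that the authors kept were used, with 4771 to 8699 cells and median depths of 3721 to 4657 UMIs per tumor. The runs shared 60 barcode sequences among these cells. Cells were gated by lineage markers, none of them a member, and 14 cell types had at least 20 cells in every tumor. Foxp3-negative CD4 T cells had no Foxp3 UMI at a median depth of 3018 UMIs, so Tregs with undetected Foxp3 can be among them. Other T cells are T cells that met no subset gate. All 9 mature DC markers (such as Fscn1 and Il4i1), all 3 Treg markers, both CD8 T cell markers and all 7 NK cell markers were highest in the type they were meant to mark, whereas 5 of the 8 markers of conventional DC2 (cDC2) were. The summed mature DC markers ranged from 41.6 to 57.3 UMIs per 10000 in mature DCs and from 1.31 to 1.45 in cDC2. These markers set the gates, so their levels are no independent check of the types. Of lists not used for these gates, 14 of 20 DC maturation genes were highest in mature DCs. In Tregs 12 of 20 Treg effector genes were highest, and in Foxp3-negative CD4 T cells 0 of 10 naive lymphocyte genes. Itgae and Il1r2 of the Treg effector list were markers of other gates. The lists were chosen with earlier results of these data known, so they are no independent check either. Csf1r was measured at 1.49 and 2.12 UMIs per 10000 in macrophages of the Csf1rfl/fl tumors and at 1.39 and 1.23 in those of the Lyve1CreCsf1rfl/fl tumors. Tags at the 3′ end need not cover the deleted part, so these values do not test the deletion.

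Across the gated types, Ccl22 and Ccr7 were concentrated in mature DCs, Ccl17 was split between mature DCs and cDC2, Ccl1 was spread over T cells and NK cells, and Ccr4 and Ccr8 were found in Tregs, other CD4 T cells and other T cells at low levels. Levels below are UMIs of a gene per 10000 UMIs of the cell type in a tumor. They compare 1 gene between cell types, and no level is compared between genes. Levels are descriptions, since the genes were proposed with results of these data known.

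**Figure D1:**
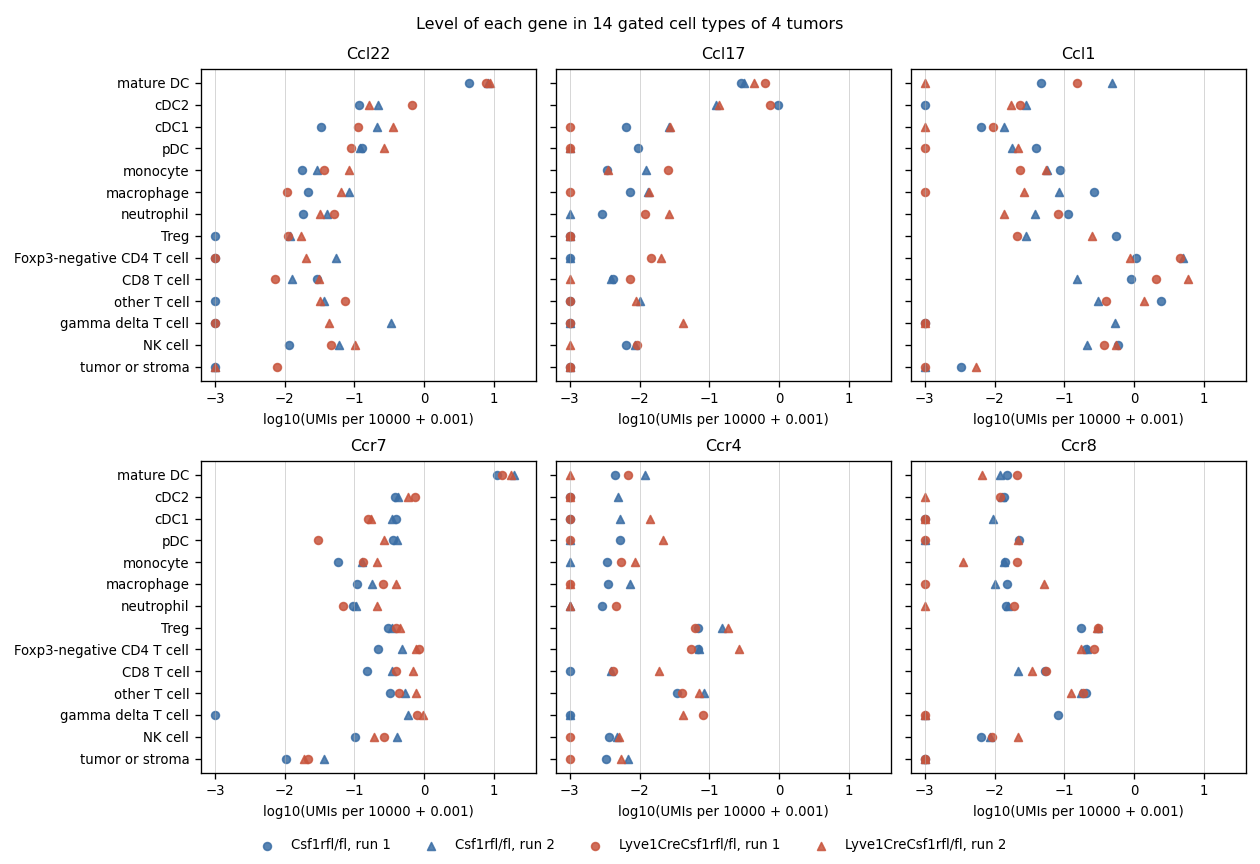
Level of each of the 6 genes in 14 gated cell types, as log10 of UMIs per 10000 plus 0.001, so that a value at -3 is a count of 0. Each point is 1 tumor, with color for the genotype and shape for the run. Mature DCs stood apart for Ccl22 and Ccr7, and Tregs overlapped Foxp3-negative CD4 T cells for Ccr4 and Ccr8.

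Ccl22 was read at 4.34 and 8.16 UMIs per 10000 in mature DCs of the 2 Csf1rfl/fl tumors and at 7.81 and 8.79 in those of the 2 Lyve1CreCsf1rfl/fl tumors (means 6.25 ± 2.70 and 8.30 ± 0.693, SD, n = 2 tumors each). Mature DCs held 85.3% of the Ccl22 UMIs of all kept cells. cDC2 came next at 0.114, 0.218, 0.675 and 0.162 in the same order of tumors, 24.9 times lower on average, and the ranges of both types were apart. Below cDC2, no neighbor in the order of 14 types was apart from the next, down to CD8 T cells at a mean of 0.0191 and Tregs at 0.00925. The 4 tumors' UMIs of Ccl22 in mature DCs came from many cells, and 155 of the 1255 cells with a UMI held 50% of them.

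Ccl17 was measured at 0.287 and 0.314 UMIs per 10000 in mature DCs of Csf1rfl/fl tumors and at 0.623 and 0.433 in those of Lyve1CreCsf1rfl/fl tumors. In cDC2 the values were 0.952 and 0.124 in Csf1rfl/fl tumors and 0.731 and 0.137 in Lyve1CreCsf1rfl/fl tumors. Both tumors of run 1 were thus higher than both tumors of run 2 in cDC2, whereas the mature DC values did not follow the run. These cDC2 values rested on few cells. Of 988 cDC2, 31 had a Ccl17 UMI, 8 of them with 10 or more held 85.2% of the UMIs, and 1 cell of Csf1rfl/fl replicate 1 held 111 of 330. Without the highest cell of each tumor, the cDC2 levels were 0.247, 0.0855, 0.502 and 0.00808. The next type, cDC1, had a mean of 0.0144, 28.9 times below mature DCs and apart from them.

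Ccl1 had no single source. It averaged 2.86 ± 2.21 UMIs per 10000 (SD, n = 4 tumors) in Foxp3-negative CD4 T cells, 2.25 ± 2.54 in CD8 T cells, 1.13 ± 1.01 in other T cells, 0.430 ± 0.175 in NK cells and 0.210 ± 0.247 in Tregs, and each of these overlapped its neighbor in the order. CD8 T cells held 43.9% of all Ccl1 UMIs. Their values were 0.904 and 0.150 in Csf1rfl/fl tumors and 2.09 and 5.87 in Lyve1CreCsf1rfl/fl tumors, without overlap of the genotypes. In Foxp3-negative CD4 T cells the values were 1.05 and 4.99 against 4.54 and 0.863, with the order of the genotypes crossed between runs.

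Few cells with many UMIs made up the Ccl1 signal. Over all kept cells, 622 cells had a Ccl1 UMI, and 135 of them with 10 or more held 85.4% of the 7335 UMIs. Among CD8 T cells, 57 cells held 86.0%, with up to 336 UMIs in 1 cell, and these 57 cells were 11 and 1 in the Csf1rfl/fl tumors and 17 and 28 in the Lyve1CreCsf1rfl/fl tumors. Scrublet, a doublet caller, marked 5, 0, 2 and 1 of them as doublets. Without the highest cell of each tumor, the CD8 T cell levels were 0.710 and 0.109 against 1.85 and 4.85.

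Ccr7 was read at 11.2 and 19.3 UMIs per 10000 in mature DCs of Csf1rfl/fl tumors and at 12.9 and 17.7 in those of Lyve1CreCsf1rfl/fl tumors (mean 15.3 ± 3.85, SD, n = 4 tumors). Mature DCs held 75.8% of the Ccr7 UMIs. Among the 14 types, gamma delta T cells came next and had a mean of 0.584, 26.1 times lower and apart from mature DCs. Foxp3-negative CD4 T cells, cDC2, other T cells, CD8 T cells and Tregs followed with means of 0.577, 0.535, 0.510, 0.396 and 0.374, each overlapping its neighbor. B cells, which had fewer than 20 cells in some tumors, were at 0.821, 2.01, 2.46 and 1.48, also below mature DCs.

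Ccr4, the receptor of CCL22 and CCL17, was sparse, with 202 UMIs in 175 cells of all kept cells. In Tregs it was found at 0.0668 and 0.151 UMIs per 10000 in Csf1rfl/fl tumors and at 0.0608 and 0.185 in Lyve1CreCsf1rfl/fl tumors. Foxp3-negative CD4 T cells had 0.0678, 0.0710, 0.0534 and 0.268 in the same order of tumors. The means of both types, 0.116 and 0.115, did not differ beyond their spread. Other T cells, at 0.0331, 0.0816, 0.0391 and 0.0699, overlapped both.

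Ccr8, the receptor of CCL1, had 612 UMIs in 537 cells. Its levels in Tregs were 0.172 and 0.302 in Csf1rfl/fl tumors and 0.304 and 0.297 in Lyve1CreCsf1rfl/fl tumors. Foxp3-negative CD4 T cells had 0.203, 0.213, 0.267 and 0.173, which overlapped the Treg values. Other T cells followed at a mean of 0.171, and CD8 T cells were 4.25 times lower than these and apart from them.

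Since cells differed in depth, shares of cells with a UMI were compared after thinning each cell to 2000 UMIs and leaving out shallower cells, 120 mature DCs, 222 Tregs, 181 CD8 T cells, 138 Foxp3-negative CD4 T cells, 10 cDC2 and 2697 neutrophils. Neutrophils were assumed to lack these genes, which was not tested, and their deeper cells served as background. Median depths before thinning were 4896 UMIs in mature DCs, 6475 in cDC2, 3571 in Tregs, 4796 in CD8 T cells and 2094.5 in neutrophils. All intervals are exact 95% binomial ones and cover counting error only.

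Ccr7 was found in 83.6% of thinned mature DCs (81.8 to 85.3%; 91.3% without thinning) and in 1.34% of neutrophils. Ccl22 was found in 50.6% (48.2 to 52.9%; 66.8% without thinning) against 0.478%. Most mature DCs thus had Ccr7 RNA, and about as many had a Ccl22 UMI as had none at this depth. Ccl17 was found in 4.32% of mature DCs (3.42 to 5.38%; 6.60% without thinning) and 1.84% of cDC2 (1.09 to 2.89%; 3.14% without thinning), against 0.0956% of neutrophils. Among 1000 thinned Tregs none had a Ccl17 UMI, which allows a share of cells with a UMI of up to 0.3% by the limit of 3 counts and 0.368% by the exact interval.

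Ccr8 was found in 6.40% of thinned Tregs (4.96 to 8.10%; 11.9% without thinning), in 4.85% of Foxp3-negative CD4 T cells (3.06 to 7.24%) and in 0.191% of neutrophils. Ccr4 was found in 2.50% of Tregs (1.62 to 3.67%; 4.75% without thinning), in 2.86% of Foxp3-negative CD4 T cells (1.53 to 4.85%) and in 0.0319% of neutrophils. For both receptors the intervals of Tregs and other CD4 T cells overlapped. Ccl1 was found in 5.76% of CD8 T cells (4.89 to 6.74%; 9.06% without thinning), 7.71% of Foxp3-negative CD4 T cells and 1.2% of Tregs, against 0.351% of neutrophils.

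**Figure D2:**
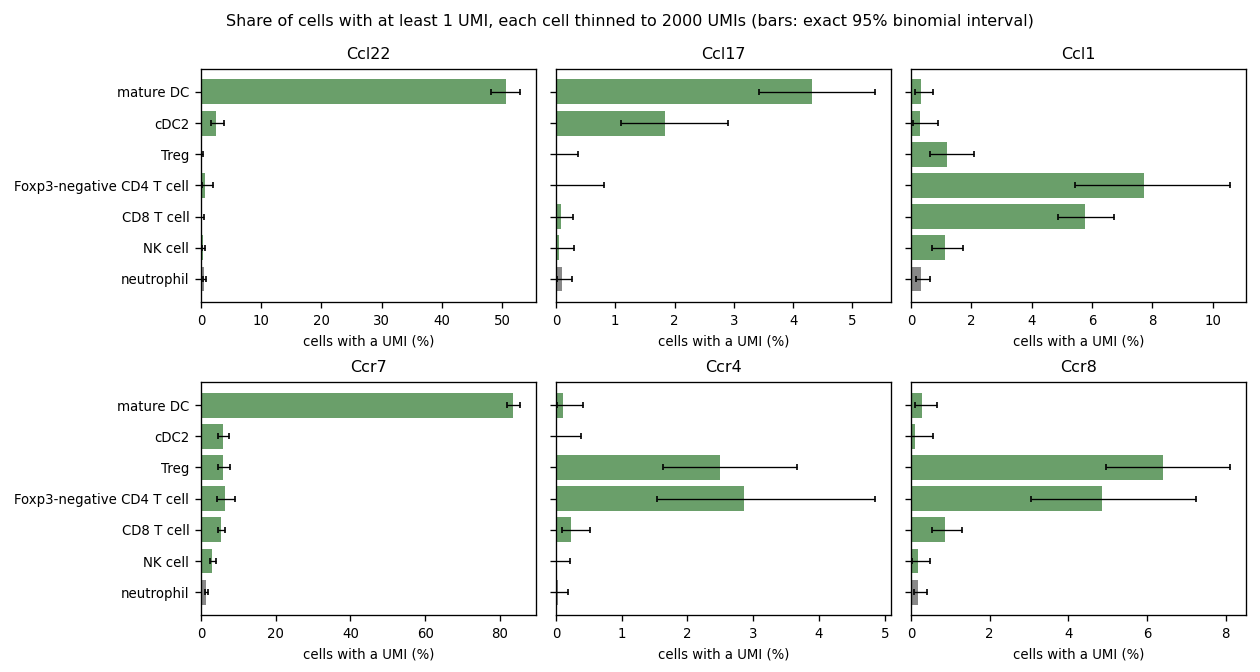
Percent of cells with at least 1 UMI of each gene in 7 cell types over the 4 tumors, each cell thinned to 2000 UMIs, with exact 95% binomial intervals and neutrophils in gray as background. Each panel has its own scale: Ccr7 reached 83.6% in mature DCs, and Ccr4 stayed at or below 2.86% in every type shown.

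The genes differed in how their UMIs were spread over positive cells. In CD8 T cells 12 cells held 50% of the Ccl1 UMIs, and in cDC2 3 cells held 50% of the Ccl17 UMIs. In Tregs most positive cells had 1 UMI of Ccr4 (70 UMIs in 58 cells) or Ccr8 (171 UMIs in 146 cells).

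**Figure D3:**
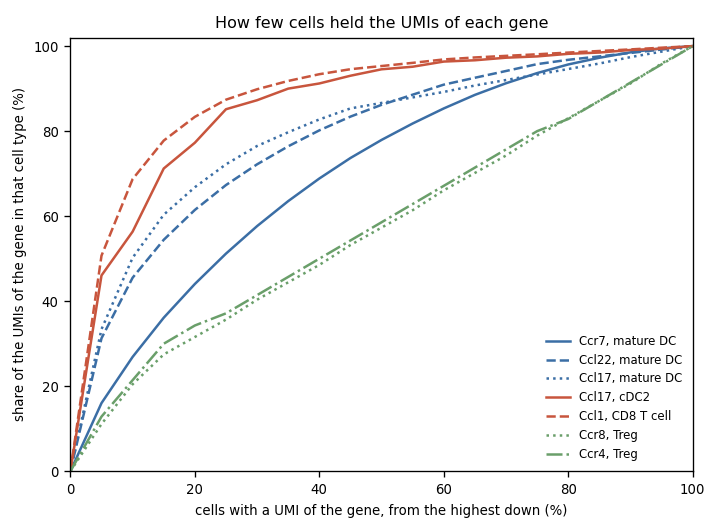
Cumulative share of the UMIs of a gene (y axis, percent) held by its positive cells taken from the highest down (x axis, percent of positive cells), for 7 pairs of gene and cell type. Ccl1 in CD8 T cells and Ccl17 in cDC2 rose most steeply, and Ccr4 and Ccr8 in Tregs lay close to a straight line.

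Few mature DCs had both DC ligands, but nearly all with Ccl17 also had Ccl22. Of 76 thinned mature DCs with a Ccl17 UMI, 71 also had a Ccl22 UMI (93.4%), against 48.6% of mature DCs without Ccl17. The number with both was 2.56 and 1.76 times that given by independent shares in the Csf1rfl/fl tumors and 1.74 and 1.57 times in the Lyve1CreCsf1rfl/fl tumors, so it was above 1 in each tumor. Ccl22 was found in 52.5% of thinned mature DCs with a Ccr7 UMI and in 40.5% of those without, higher in those with Ccr7 in 4 of 4 tumors, and as most cells had Ccr7 the ratio was 1.04. In Tregs, 2 cells had both Ccr4 and Ccr8 where independent shares give 1.6, too few to compare. These counts are descriptions, and cells of 1 tumor are not replicates.

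Across the means of the 14 types, the Pearson correlation of log2(UMIs per 10000 + 0.1) was 0.887 between Ccr7 and Ccl22, 0.792 between Ccl22 and Ccl17 and 0.956 between Ccr4 and Ccr8. Among 13041 genes outside the gates, the pattern of Ccl22 was closest to Bcl2l14 (0.981), Exd1, Il12b (0.977), H2-Eb2 and Adgrg6. That of Ccr7 was closest to Slc4a8 (0.965), Ramp3, Cd1d1, Capsl and Nrde2, and that of Ccl17 to Cadm3 (0.970), Vdr, Timd4, Adam23 and Ltc4s. For Ccr8 these were Sv2c (0.992), Itgb8, Trbv1, Neb and Ttn, for Ccr4 A630023P12Rik (0.991), Fam124b, Fam81a, Trbv1 and Izumo1r, and for Ccl1 Gm39323 (0.962), Ptprk, Epas1, Gm17173 and Trbv12-2. The 14 points share libraries. For Ccr4 the 0.1 added was close to its highest mean, 0.116 in Tregs. Outside Tregs, Foxp3-negative CD4, other and gamma delta T cells its means were 0.00620 or less, so its correlations rest mainly on these types.

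Mature DCs were compared with cDC2 to ask which members differ between these DC states. UMIs were summed per tumor and type and tested with edgeR's quasi-likelihood test with the tumor as block and Benjamini-Hochberg adjustment over all genes, and 61.2% of genes were called (31.7% higher and 29.5% lower in mature DCs). Of the 3 members with enough counts, 2 were called. Ccr7 was higher in mature DCs by 5.07 on the log2 scale (SE 0.15, adjusted p = 1.73e-12) and Ccl22 by 4.89 (SE 0.23, adjusted p = 1.56e-10), each in 4 of 4 tumors. Ccl17 had a log2 difference of 0.10 (SE 0.35, adjusted p = 0.823) and was higher in 2 of 4 tumors. This value moved with the tumors and gates used. It was 0.74 (adjusted p = 0.0205) without Csf1rfl/fl replicate 1, -0.23 and -0.19 without replicate 2 of Csf1rfl/fl or of Lyve1CreCsf1rfl/fl, and passed with strict gates (0.88, adjusted p = 0.00326) and with a wider hashtag margin (0.94, adjusted p = 0.00724).

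Of the 18 other genes of these axes and of DC or T cell positioning, 10 were tested, of which 6 were higher and 4 lower in mature DCs, with a median log2 difference of 0.68 against 0.03 over all genes. Cxcr5, the receptor of the B cell follicle chemokine CXCL13, was higher by 6.06 (adjusted p = 1.20e-08). S1pr1, which takes lymphocytes out of lymphoid organs, was higher by 2.17 (adjusted p = 0.000129). Ccr2, a receptor of monocytes and part of the monocyte gate, fell by 2.09. Of 20 DC maturation genes 19 were higher and none lower, among them Il12b (5.33), the shared subunit of IL-12 and IL-23, and the chemokine gene Ccl5 (4.98). Of the ligands of CCR7, Ccl19 had 57 UMIs in all kept cells, 36 of them in mature DCs, and Ccl21a had none.

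Tregs were compared with Foxp3-negative CD4 T cells in the same way, where 8.6% of genes were called (3.63% higher and 4.97% lower in Tregs). Of the 3 members tested, 2 were lower in Tregs and none higher. Ccl1 fell by 4.07 on the log2 scale (SE 0.43, adjusted p = 3.82e-09), lower in 4 of 4 tumors, where 4 cells held 50% of the Ccl1 UMIs of Foxp3-negative CD4 T cells. The fall passed in every alternative run and its size varied, with -3.15 without Lyve1CreCsf1rfl/fl replicate 1, -3.19 without Csf1rfl/fl replicate 2, -5.45 without Csf1rfl/fl replicate 1, -6.17 with strict gates and -2.02 against CD4 T cells without a UMI of Foxp3, Ikzf2 or Il2ra. The UMIs that let Ccl1 enter this test came mostly from Foxp3-negative CD4 T cells, at 0.863 to 4.99 UMIs per 10000. Tregs were at 0.0203 to 0.544. The Ccl1 calls are thus no support for a difference, and the levels are a description. Ccr7 fell by 0.66 (SE 0.19, adjusted p = 0.0193), lower in 3 of 4 tumors, and this call was lost in 5 alternatives. The difference was smaller without Lyve1CreCsf1rfl/fl replicate 1 (-0.42, adjusted p = 0.372) and with strict gates (-0.44, adjusted p = 0.437). It stayed within its SE of the value with all tumors without Lyve1CreCsf1rfl/fl replicate 2 (-0.62, adjusted p = 0.0678), with DESeq2 (-0.57, adjusted p = 0.602) and with no block (-0.67, adjusted p = 0.307). Against CD4 T cells without a UMI of Foxp3, Ikzf2 or Il2ra, a choice made after seeing the data, its direction turned (0.15, adjusted p = 0.861). That fit called 878 genes (13.6%). Ccr8 had a log2 difference of 0.29 (SE 0.23, adjusted p = 0.555), and Ccr4 had too few counts for the test.

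Of 20 Treg effector genes, 19 were tested, 9 were higher and none lower in Tregs, with a median of 0.45 against 0.00 over all genes. Itgae, an integrin of tissue lymphocytes, was higher by 0.96 and Klrg1, a receptor of differentiated lymphocytes, by 0.94. Of the 8 tested genes of the positioning list, Ccr2 was higher by 0.85, and Cxcr6 and Cxcr4 fell by 2.46 and by 0.72. Of the 8 tested naive lymphocyte genes 3 were lower, among them Tcf7, which fell by 2.67, and Actn1, which fell by 1.63.

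Within Tregs, 371 cycling cells were compared with 815 that were not, where 48.8% of genes were called (25.5% higher and 23.3% lower in cycling cells) and both members tested were called. Ccr8 was measured at 0.141, 0.179, 0.215 and 0.188 UMIs per 10000 in cycling Tregs and at 0.231, 0.462, 0.429 and 0.445 in the others, and the ranges were apart. It fell by 1.01 on the log2 scale (SE 0.23, edgeR quasi-likelihood adjusted p = 0.000282), lower in 4 of 4 tumors, and missed the threshold with DESeq2 (adjusted p = 0.0520). The fall is relative to the total UMIs of the cells. After thinning, 4.36% of cycling Tregs (2.51 to 6.98%) and 7.69% of the others (5.69 to 10.1%) had a Ccr8 UMI, and without thinning 14.6% and 10.9% had one, in the opposite order. Ccr7 was higher by 0.56 (SE 0.21, adjusted p = 0.0261), in 4 of 4 tumors, and this call was lost without Csf1rfl/fl replicate 1 (adjusted p = 0.0555) or Lyve1CreCsf1rfl/fl replicate 2 (adjusted p = 0.153), with DESeq2 (adjusted p = 0.227), with strict gates (adjusted p = 0.170) and with no block (adjusted p = 0.0596). With strict gates Ccr8 had too few counts for the test. Of 18 tested Treg effector genes 13 were lower in cycling Tregs, such as Itgae, which fell by 1.87, and Il10, which fell by 1.53, and Irf4 was higher by 0.94.

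The genotypes were compared within each cell type to ask whether the members differed between Lyve1CreCsf1rfl/fl and Csf1rfl/fl tumors. In the 13 types with a member tested there were 36 pairs of member and type, and none passed edgeR's quasi-likelihood test or DESeq2 (smallest edgeR adjusted p = 0.949), with 12 at an unadjusted p under 0.05, as had 1.9% of all pairs of gene and type. Over the 14 types this test called 1 gene in all, in cDC2 (0.0117%), and DESeq2 called 15. Leaving out 1 tumor, 4 pairs passed without Csf1rfl/fl replicate 1, 9 without Csf1rfl/fl replicate 2, 3 without Lyve1CreCsf1rfl/fl replicate 1 and 3 without Lyve1CreCsf1rfl/fl replicate 2. Of all pairs of gene and type, 0.185%, 0.544%, 0.217% and 0.133% passed in these fits, against 0.000839% with all tumors. The genotypes did not overlap for 14 of the 36 pairs. Of these, 10 were higher and 4 lower in Lyve1CreCsf1rfl/fl tumors, where 9.36% and 13% of all pairs of gene and type were. The share of genes without overlap ran from 17.9% in NK cells to 29.3% in macrophages, and was 25.0% in neutrophils and 23.3% in other T cells. No member stood apart in NK cells, neutrophils or other T cells.

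**Figure D4:**
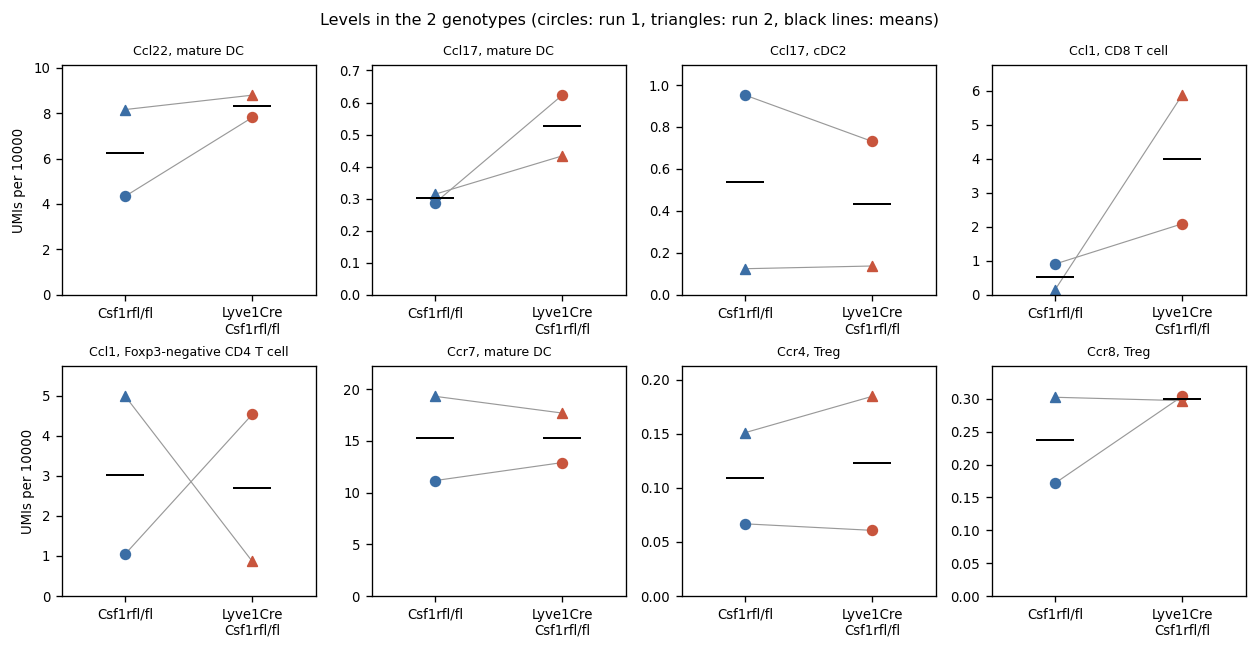
UMIs per 10000 for 8 pairs of gene and cell type in each tumor, with lines joining the tumors of 1 run and black bars for genotype means (n = 2 tumors). Ccl1 in CD8 T cells was higher in both Lyve1CreCsf1rfl/fl tumors (2.09 and 5.87 against 0.904 and 0.150), and Ccl1 in Foxp3-negative CD4 T cells crossed between runs.

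In mature DCs, the log2 difference between genotypes was 0.03 for Ccr7 (SE 0.30), 0.45 for Ccl22 (SE 0.30) and 0.87 for Ccl17 (SE 0.28), and of these only Ccl17 did not overlap, as did 19.9% of genes. In Tregs it was 0.32 for Ccr8 (SE 0.29) and -0.02 for Ccr4 (SE 0.48). None of these passed the adjusted test, and single tumors decided their size. Ccl22 in mature DCs was 0.13 without Csf1rfl/fl replicate 1 and 0.87 without replicate 2, and Ccl17 was 0.46 without Lyve1CreCsf1rfl/fl replicate 1 and 1.16 without replicate 2. In Tregs, Ccr8 was 0.10 without Csf1rfl/fl replicate 1 and 0.72 without replicate 2, and Ccr4 ran from -0.81 without Lyve1CreCsf1rfl/fl replicate 2 to 0.66 without Csf1rfl/fl replicate 2. Ccr7 in mature DCs ran from -0.24 without Csf1rfl/fl replicate 1 to 0.38 without replicate 2.

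Ccr7 did not overlap between genotypes in 9 of 13 types. It was higher in Lyve1CreCsf1rfl/fl tumors in CD8 T cells, Foxp3-negative CD4 T cells, Tregs, cDC2, gamma delta T cells, macrophages and monocytes, and lower in cDC1 and plasmacytoid DCs (pDC). Thinned to 2000 UMIs, 1.13% of macrophages (0.662 to 1.81%) and 1.19% of monocytes (0.882 to 1.56%) had a Ccr7 UMI. Both intervals held the 1.34% of neutrophils. Mean levels were 0.233 and 0.132 UMIs per 10000 in macrophages and monocytes, against 0.118 in neutrophils. The part of background in the genotype values of these 2 types was not tested. In pDC the interval of the share, 0.769 to 2.92%, held that of neutrophils. The Ccr7 levels of cDC1 and pDC rested on few cells. In cDC1, 5 of 489 cells held 58.2% of the Ccr7 UMIs, and in pDC 5 of 628 cells held 68.0%. Of cDC1 thinned to 2000 UMIs, 3.2% and 3.5% had a Ccr7 UMI in the Csf1rfl/fl tumors. In the Lyve1CreCsf1rfl/fl tumors 0.98% and 5.0% had one, so the genotypes overlapped in these shares. Of all genes, 18.2%, 25.6%, 21.5%, 19.8%, 24.0%, 29.3% and 19.2% did not overlap in the 7 types with higher Ccr7, in the order above, and 23.7% and 29.1% in cDC1 and pDC. In CD8 T cells it was 0.149 and 0.349 UMIs per 10000 against 0.398 and 0.689, a log2 difference of 1.18 (SE 0.36). The summed naive lymphocyte genes in the same cells were 3.10 and 4.96 against 5.12 and 9.03, also without overlap, and their part in the Ccr7 values was not tested. Leaving out 1 tumor, the Ccr7 difference in CD8 T cells was 0.74 without Csf1rfl/fl replicate 1 and 1.75 without Csf1rfl/fl replicate 2. It was 1.44 without Lyve1CreCsf1rfl/fl replicate 1 and 0.85 without Lyve1CreCsf1rfl/fl replicate 2.

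Ccl1 in CD8 T cells had a log2 difference of 2.77 (SE 0.82), higher in both Lyve1CreCsf1rfl/fl tumors, and missed the threshold. The difference was 4.80 without Csf1rfl/fl replicate 1 and 1.99 without Csf1rfl/fl replicate 2. In macrophages Ccl1 went the other way, from 0.266 and 0.0836 to 0 and 0.0252, a log2 difference of -4.00 (SE 1.10). It passed without Csf1rfl/fl replicate 2 (-4.60, adjusted p = 6.38e-05) and, as the only member, with the run as a block (-3.92, adjusted p = 0.0464). These calls are no support for a difference, since the UMIs that let Ccl1 enter the test in macrophages came from the Csf1rfl/fl tumors, and of 26 cells with a UMI 3 held 50% of the UMIs. The summed T cell markers in macrophages were 7.80, 3.45, 2.12 and 7.03 and Scrublet called 31.1% of macrophages doublets, and the part of either in the macrophage Ccl1 values was not tested.

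**Figure D5:**
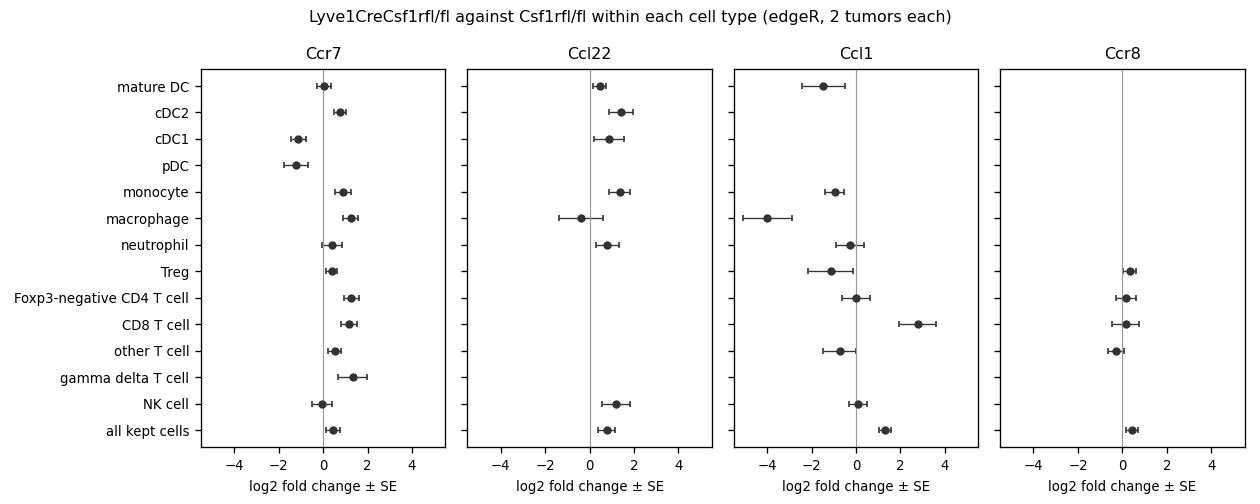
Log2 difference between Lyve1CreCsf1rfl/fl and Csf1rfl/fl tumors (x axis, edgeR, ± SE, n = 2 tumors each) of Ccr7, Ccl22, Ccl1 and Ccr8 in each type where the gene was tested and in all kept cells. Across types, Ccl1 ran from -4.00 in macrophages to 2.77 in CD8 T cells and Ccr8 from -0.28 to 0.32, and in all kept cells Ccr8 was at 0.44.

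Over all kept cells, which join the share of each type with the level per cell so that the 2 cannot be told apart, Ccl1 was 0.332 and 0.229 UMIs per 10000 against 0.549 and 0.923 (log2 difference 1.30, SE 0.28, edgeR adjusted p = 0.857). With DESeq2 it passed (adjusted p = 0.00850), as it did without Lyve1CreCsf1rfl/fl replicate 1 in edgeR (1.52, adjusted p = 0.000231). Ccl17 passed without Lyve1CreCsf1rfl/fl replicate 2 (1.47, adjusted p = 0.000581). The log2 difference was 0.77 for Ccl22, 0.87 for Ccl17, 0.91 for Ccr4, 0.44 for Ccr8 and 0.43 for Ccr7. Of the 6 members, Ccl1, Ccl22 and Ccr8 did not overlap, as did 19.0% of genes, and none passed edgeR's test, with 1 member and 491 genes at an unadjusted p under 0.05. Mature DCs were 5.06% and 6.19% of kept cells in Csf1rfl/fl tumors and 8.87% and 6.75% in Lyve1CreCsf1rfl/fl tumors. The authors removed 4 clusters made up mostly of cells of Lyve1CreCsf1rfl/fl replicate 2, and the part of this removal in its shares was not tested. With all singlets in place of the kept cells, Ccl1 over all cells was 0.361 and 0.216 against 0.642 and 0.567 UMIs per 10000 (log2 difference 1.02), and no member passed.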

How the data were processed

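CD45+ cells of 4 EO771 tumors were measured with 10x 3′ reagents in 2 Chromium runs. The authors made UMI counts with Cell Ranger 6.0.1 on mm10 and deposited them with hashtag counts, and they deposited SCTransform values (unit score) that served here only to name the cells they kept. They had removed doublets, cells above 5% mitochondrial UMIs and 4 clusters made up mostly of Lyve1CreCsf1rfl/fl replicate 2. The higher hashtag of a cell set its tumor. Depth was 27686362 to 56715743 UMIs per tumor.

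Cells were gated by marker scores, leaving 4014 ungated and 2291 within 0.05 of a limit. Scrublet doublets (12.5% to 25.5% per tumor) were kept, and removed in an alternative. Sums per tumor and type were tested with edgeR 4.0.16 (filterByExpr, TMM, quasi-likelihood, R 4.3.3), with DESeq2 1.42.0, stricter gates, other hashtag margins, leaving out each tumor and a change of block as alternatives. The threshold was an adjusted p of 0.05. Replicate numbers are the runs, and deviations of tumors of the same run correlated at 0.186 to 0.537 in 14 of 14 types. The tests were tried on simulated data with 100 genes changed by 1 and 100 by 2 on the log2 scale. Between mature DCs and cDC2, 100 of each were recovered, with 21 false calls. Between genotypes, 43 of those changed by 1 were recovered in mature DCs and 40 in CD8 T cells. Of those changed by 2, 99 were recovered in each, with 6 and 13 false calls. Differences of 1 between genotypes could thus be missed. The 2 tumors of a genotype are separate tumors from different runs, so p-values between genotypes measure the spread of tumor and run together. Between cell types or cycling states the tumor was a block, and p-values measure the spread of differences within tumors.

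All members are named. Of each gene list, the 2 strongest risers and 2 strongest fallers could be named if they passed the threshold and moved alike in every tumor, and for each member the 5 genes most alike. The members and lists were chosen with earlier results of these data known. Sequences are from RefSeq (5 of 6 members matched; Ccr7 has none shown) and positions from the GRCm38 annotation. The result of 1 listed gene is not reported here.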

Additional observations from a re-analysis of the deposited data

How the results depend on the processing

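Among the results followed across the alternatives, which held only some of the genotype pairs, 3 turned sign, of which 2 had missed the threshold. Ccr4 between genotypes in Tregs, outside this set, also turned sign leaving out 1 tumor. The Ccl17 difference between mature DCs and cDC2 was -0.011 with no replicate block and -0.23 to 0.74 leaving out 1 tumor. The Ccr7 difference between genotypes in mature DCs was -0.052 without Scrublet doublets and -0.24 to 0.38 leaving out 1 tumor. The Ccr7 difference between Tregs and other CD4 T cells, which had passed at -0.66, was 0.15 against CD4 T cells without a UMI of Foxp3, Ikzf2 or Il2ra, an alternative chosen after seeing the data, and 1 member was then called. The cause was not tested.

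Between Tregs and other CD4 T cells, 661 genes and 2 members were called, against 224 genes (68 higher and 156 lower, where edgeR gave 279 and 382) with DESeq2, 345 with strict gates, 160 with no replicate block and 381 to 612 leaving out 1 tumor, with 1 member in the first 3 and 1 to 2 in the last. Between cycling and other Tregs, 3439 genes (1798 higher and 1641 lower) became 1891 with DESeq2 (1187 and 704) and 1868 with strict gates, and the 2 members called became 0 in both (with strict gates only Ccr7 could be tested), 1 with no replicate block and 1 to 2 leaving out 1 tumor. Between mature DCs and cDC2, 2 to 3 members were called leaving out 1 tumor.

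Between genotypes within types, 1 gene and 0 members became 15 genes with DESeq2, 421 and 5 with no filter on low counts, 13 genes without Scrublet doublets, 2 genes with the hashtag margin of 3, 2 genes with all singlets, 193 and 1 with the replicate block, and 171 to 669 and 3 to 9 leaving out 1 tumor. Over all kept cells, 0 genes became 28 with DESeq2 and 175 with no filter, each with 1 member, and 0 to 133 genes and 0 to 1 member leaving out 1 tumor. The replicate block changed no other call of a member between genotypes. Of 119189 pairs of gene and type, 0.000839% passed in the main fits, 0.0126% with DESeq2 and 0.162% with the replicate block. With no filter 0.193% of 217806 pairs passed. Over all kept cells 0.787% of 22232 genes passed with no filter, and 0.21% of 13303 with DESeq2. More genes were tested without the filter, so its counts of genes and members cannot be set directly against those of the main fits. Without the low count filter Ccl1 in CD8 T cells had a log2 difference of 2.76 and passed. A tumor left alone in its genotype is assumed to vary like the others.

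Shares moved with depth. Thinned to 1000 UMIs they were 69.2% for Ccr7, 36.9% for Ccl22 and 2.31% for Ccl17 in mature DCs, 1.31% for Ccr4 and 3.20% for Ccr8 in Tregs and 3.76% for Ccl1 in CD8 T cells, and without thinning 91.3%, 66.8%, 6.60%, 4.75%, 11.9% and 9.06%, with 3.14% for Ccl17 in cDC2. Ccr4 had 202 UMIs and Ccr8 had 612 in all kept cells, and the part of depth in these low counts was not tested.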

Other observations

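Cells with many Ccl1 UMIs also differed in other genes. In the 3 tumors with at least 10 such cells, CD8 T cells with 10 or more Ccl1 UMIs had 30.0 UMIs per 10000 of Xcl1, a chemokine gene of activated CD8 T and NK cells, against 2.75 in CD8 T cells with none, a mean log2 ratio of 3.04. The next were Penk (2.85), which encodes an opioid precursor, Cd70 (2.32), a ligand of the costimulatory receptor CD27, Crtam (2.27), Ccdc184 (2.24), Rgcc (1.93) and Il2ra (1.67), the IL-2 receptor alpha chain. The cells compared differed in depth, with median UMIs of 8592, 7368 and 6512.5 against 4792.5, 4181 and 4787.5, and the part of depth was not tested. Mature DCs with a Ccl17 UMI had 24.0 UMIs per 10000 of Ccl22 against 5.89 in those without, a mean log2 ratio of 2.07, followed by H2-M2 (1.22), Serpinb1a (1.21), 2200002D01Rik (0.85) and Nrp2 (0.81). The median depth was 5896, 6428.5, 6250 and 6404 UMIs in those with Ccl17 and 5484, 4851.5, 4478 and 4788.5 in those without. These genes were chosen after their values were seen, as those with the highest ratios in the same direction in every tumor compared, and no test was run.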
